A study of Rattus norvegicus with 12 samples.

Results

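The effect of time after nerve section was taken over both treatments, by setting all 6 day 35 arrays against all 6 day 7 arrays of denervated rat gastrocnemius, a calf muscle, with treatment as an additive term. These are all 12 arrays of the series, so the comparison leaves none out. The day 35 groups were 3 nandrolone and 3 vehicle arrays, from rats dosed for 7 days from day 29 after surgery. The day 7 groups were 3 nandrolone and 3 vehicle arrays, from rats dosed for 7 days from the day of surgery. All were male Wistar-Hannover rats with the left sciatic nerve cut. The labels do not say that each array came from a separate rat, so p-values measure the spread between these arrays, which may be technical. Nandrolone is an anabolic androgen. Since no innervated muscle is among the arrays, time since nerve section cannot be told apart from age and growth or from the later start of dosing. The labels give neither the age of the rats nor the drug dose, and the hour of tissue collection is not given in the sources used here. A difference in hour between the days can therefore not be told apart from time since nerve section either.

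A muscle that loses its motor nerve wastes within weeks. Its fibres first switch on ubiquitin ligases that mark proteins for breakdown, spread acetylcholine receptors outside the old synapse and re-express embryonic genes. Later the loss of mass slows, and fibre types, calcium handling and the cells around the fibres go on changing.

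The arrays carried strong muscle signal: the summed signal of 13 skeletal muscle fibre markers was 152460 to 174550 on day 35 arrays and 157070 to 170000 on day 7 arrays. The array of nandrolone day 35 replicate 3 stands apart. Its mean correlation with the other arrays of its day was 0.893, against 0.937 to 0.971 for the other 11, and its median deposited signal was 111, against 44.8 to 63.5. The array of nandrolone day 35 replicate 2 was high for several muscle genes that were low on the other day 35 arrays, as given below. The 3' to 5' signal ratio of Gapdh, a sign of RNA integrity, had a mean log2 of 0.255 at day 35 and 0.177 at day 7 (exact two-sided permutation p = 0.0325), and that of actin had 1.39 and 1.25 (p = 0.4). The part of RNA integrity in the results was not tested beyond a fit with the actin ratio as a covariate.

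Of 31042 probe sets without the controls, 18625 passed a filter on low signal and were tested with limma, a linear model that shares information on spread among probe sets. At a Benjamini-Hochberg adjusted p of 0.05, 2410 of them (12.9%) differed between the days, 1223 higher and 1187 lower at day 35. On the deposited scale, without quantile normalisation, 1092 passed, 772 higher and 320 lower, and the median of all genes lay 0.122 higher on the log2 scale. At least 2-fold changes made up 237 of the higher and 213 of the lower calls. By the brightest probe set of each of 10421 genes, 586 genes (5.62%) were higher and 730 (7.01%) lower at day 35. Counts in the gene lists below are to be read beside these shares of all tested genes. List counts from another fit are to be read beside the calls of that fit among the 18625 probe sets. On vehicle arrays alone 1392 were higher and 1152 lower, and under median centring 1014 and 1137. Without nandrolone day 35 replicate 2 these counts were 1282 and 1363. In 1229 probe sets (6.6%) the 6 arrays of one day all lay above the 6 of the other, and 1126 of these were among the calls. The first principal component, with 30.2% of the variance, put all day 35 arrays between 2.65 and 68.1 and all day 7 arrays between -35.3 and -11.9. Without nandrolone day 35 replicate 3, 2995 probe sets passed, 1647 higher and 1348 lower. Leaving out vehicle day 35 replicate 1 left 1501 calls, and leaving out vehicle day 7 replicate 1, 2 or 3 left 1519, 1433 or 1449. Calls made in the full fit and again in each of the 12 fits that left out 1 array numbered 1222, of which 606 were higher and 616 lower.

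**Figure D1:**
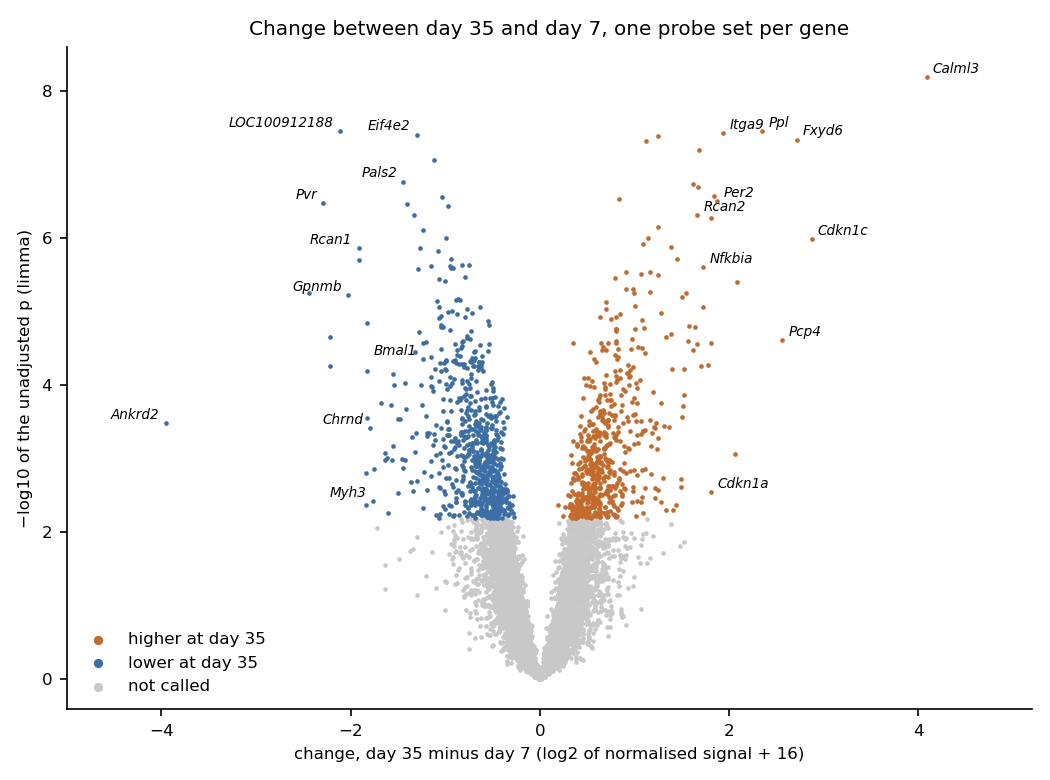
Change between day 35 and day 7 for 10421 genes, each by its brightest probe set. The horizontal axis is the log2 difference (day 35 minus day 7) of normalised signal + 16 and the vertical axis the -log10 of the unadjusted limma p; 586 genes are higher (orange), 730 lower (blue) and the rest not called (grey). Calml3 lies farthest right and Ankrd2 farthest left.

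Calml3, a calmodulin-like calcium sensor, changed most among the called genes that rose. Its normalised signal was 206 to 1066 (median 555) on day 35 arrays, against 6.57 to 27.9 (median 17.3) on day 7 arrays. Every day 35 array lay above every day 7 array, and the change was 4.09 ± 0.32 on the log2 scale (SE, n = 6 arrays each, limma adjusted p = 9.96e-05). The day 7 signals are close to the 16 added before taking logs, so this difference understates the ratio. Pcp4, which encodes a small calmodulin-binding protein, had 164 to 946 (median 351) at day 35 and 7.47 to 151 (median 39.1) at day 7. It rose by 2.56 ± 0.41 with no overlap (adjusted p = 0.0023).

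Cdkn1c, the imprinted gene of the cell cycle inhibitor p57, had signals of 1767 to 9104 (median 3746) at day 35, against 313 to 1008 (median 414) at day 7. It rose by 2.87 ± 0.35 (adjusted p = 0.000447). Fxyd6, a regulator of the sodium pump, had 529 to 1310 (median 929) at day 35 and 87.1 to 179 (median 117) at day 7, a rise of 2.71 ± 0.25 (adjusted p = 9.96e-05). Ano1, a calcium-activated chloride channel, had 218 to 372 (median 253) at day 35 and 50.9 to 105 (median 73.3) at day 7. For each of these genes the days did not overlap. Fxyd6 and Ano1 were the only members to pass among 14 tested genes of membrane channels and pumps, 14.3% against 5.62% of all tested genes. That list's median change was 0.14. Its median was -0.01, and 4 members passed, all higher, without nandrolone day 35 replicate 3.

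Of the genes that attach fibres to their surroundings, Itga9, an integrin subunit, had 218 to 403 (median 274) at day 35 and 49.9 to 84.7 (median 61.8) at day 7. Its rise of 1.94 ± 0.18 (adjusted p = 9.96e-05) came with rises of sarcospan (Sspn), a member of the dystrophin complex, by 0.99 ± 0.14, and of dystroglycan (Dag1) by 0.54 ± 0.11. Further Dag1 probe sets stood at 0.15, -0.15 and -0.27 and did not pass, and the Dag1 call was lost on the deposited scale. Periplakin (Ppl), a cytolinker of cell junctions, had 130 to 205 (median 158) at day 35 and 6.10 to 43.2 (median 19.2) at day 7. Ablim1, an actin-binding LIM protein gene, rose by 1.69 ± 0.16, and S100a4, a calcium-binding protein gene, by 1.66 ± 0.27. S100a4 had 3691 to 8176 (median 4816) at day 35 and 1001 to 3325 (median 1562) at day 7. Fibroblasts and myeloid cells also express S100a4. In bulk muscle, more cells of a type and more RNA per cell cannot be told apart, and likewise for fewer cells and less RNA. Rises were also found for the adaptor gene Stap2 (2.09 ± 0.28), Tsc22d4 (1.57 ± 0.24) and C5h8orf88 (1.72 ± 0.25). Ifitm10, of the interferon-induced transmembrane family, rose by 1.67 ± 0.17, while none of 21 tested interferon and antigen presentation genes passed in either direction.

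**Figure D2:**
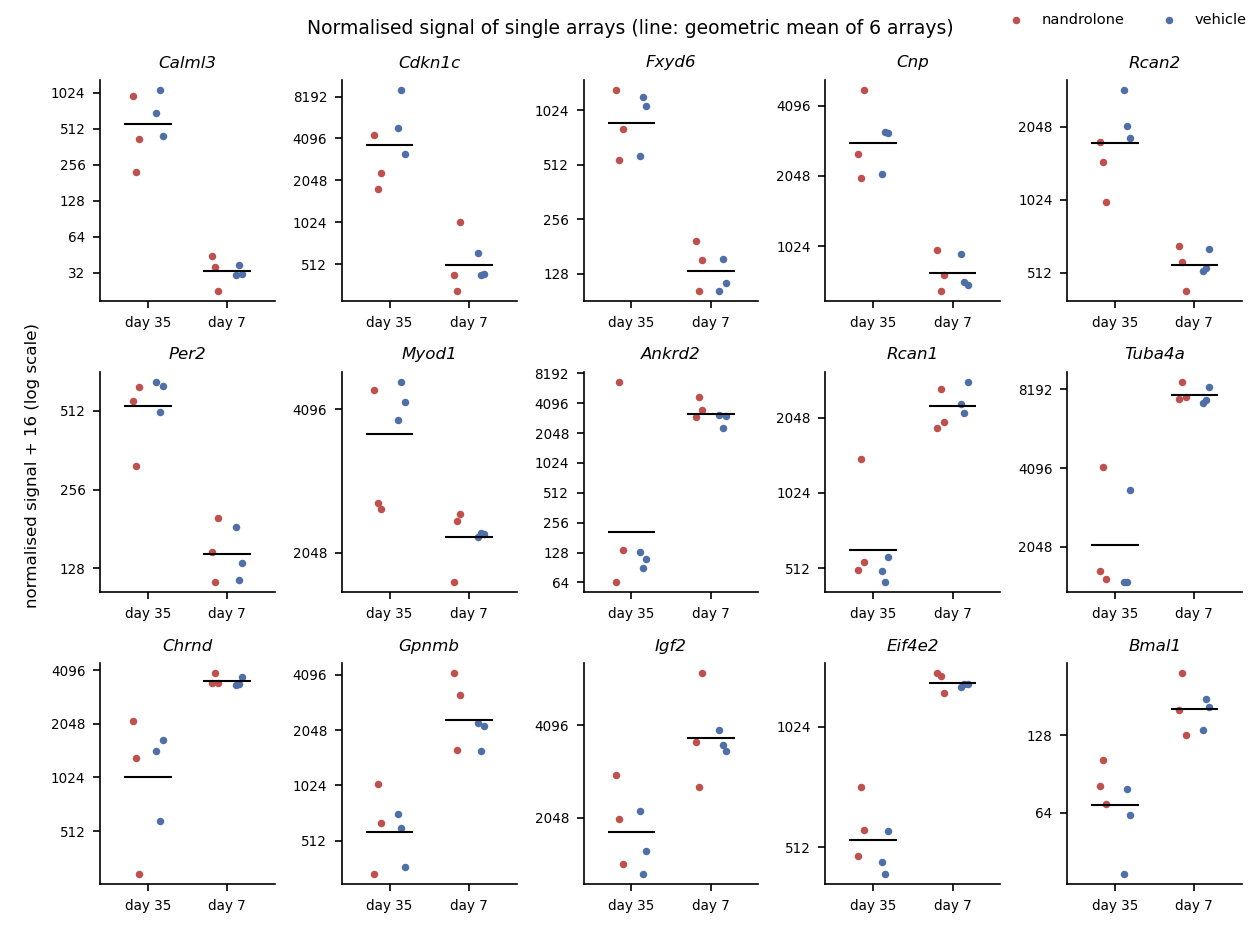
Normalised signal + 16 (log axis) of 15 genes on each of the 12 arrays, day 35 left of day 7, nandrolone in red and vehicle in blue, with the geometric mean of 6 arrays as a line. The days overlap for Ankrd2, through the 6738 of nandrolone day 35 replicate 2, and for Igf2, and do not overlap for the other 13 genes.

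Ankrd2, a stretch-responsive ankyrin repeat protein of slow fibres, changed most among the called genes that fell. Its signal was 48.1 to 121 on 5 of the day 35 arrays and 6738 on that of nandrolone day 35 replicate 2, against 2292 to 4710 (median 3033) on day 7 arrays. The 5 low arrays lay under all day 7 arrays and the sixth above all of them. The fitted change was -3.95 ± 0.83 (adjusted p = 0.00897). Rcan1, an inhibitor of the phosphatase calcineurin, had 434 to 1380 (median 506) at day 35, again with the highest value in nandrolone day 35 replicate 2, and 1852 to 2841 (median 2214) at day 7. It fell by 1.92 ± 0.24 with no overlap (adjusted p = 0.000537).

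Gpnmb, a glycoprotein of phagocytic macrophages, had 322 to 1020 (median 603) at day 35 and 1561 to 4167 (median 2171) at day 7. It fell by 2.03 ± 0.28 (adjusted p = 0.00108). Pvr, the poliovirus receptor gene, had 92.3 to 399 (median 184) at day 35 and 787 to 1184 (median 958) at day 7, a fall of 2.29 ± 0.25. Ltb, which encodes lymphotoxin beta, had 30.0 to 52.3 (median 40.1) at day 35 and 102 to 375 (median 163) at day 7. The days did not overlap for these 3 genes. C8h3orf62 fell by 2.44 ± 0.34 and Pcare by 1.42 ± 0.26. Both had day 35 medians under 64, as Ltb did, which is near the array's background.

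Further genes named for a fall without overlap of the days have varied roles. Wwtr1, the Hippo pathway coactivator TAZ, had 155 to 333 (median 236) at day 35 and 492 to 763 (median 671) at day 7, a fall of 1.41 ± 0.15 (adjusted p = 0.000268). Tgif1, a repressor of TGF-beta signalling, fell by 1.33 ± 0.15 and Pals2, a membrane scaffold gene, by 1.44 ± 0.15. Pals2 was measured by 4 further probe sets, of which 3 also passed, at -1.20 to -1.68. Rragd, a small GTPase that signals amino acids to mTOR, fell by 1.28 ± 0.20, Samd8, a ceramide-lipid synthase, by 1.32 ± 0.22, Spryd7 by 1.29 ± 0.17 and Prxl2b, a peroxiredoxin-like enzyme, by 1.26 ± 0.16.

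LOC100912188, which RefSeq GRCr8 lists as a long non-coding RNA on chromosome 4, had 29.9 to 75.7 (median 69.5) at day 35 and 212 to 400 (median 319) at day 7. It fell by 2.11 ± 0.19 (adjusted p = 9.96e-05). Its neighbour and partial overlap in that annotation is Gadd45a, a stress gene of denervated muscle, which did not pass (-0.52 ± 0.22, adjusted p = 0.14). Their RefSeq strands differ, and whether the probes tell them apart was not tested.

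The circadian clock runs in muscle fibres as a loop in which Bmal1 with Clock or Npas2 switches on the Period and Cryptochrome repressors, the D-box activators Dbp and Tef and the Rev-erb receptors. Of 19 tested clock genes 7 rose and 4 fell, 36.8% and 21.1%, against 5.62% and 7.01% of all tested genes. The list's median change was 0.30 against -0.02 for all genes. Per2 had 298 to 645 (median 579) at day 35 and 97.3 to 183 (median 125) at day 7, a rise of 1.88 ± 0.20 (adjusted p = 0.000268). Its relative Per3 had 173 to 512 (median 279) at day 35 and 23.6 to 117 (median 88.7) at day 7. The days did not overlap for either Period gene. Bhlhe41, a repressor of Bmal1 targets, rose by 1.39 ± 0.17, Dbp by 1.28 ± 0.19 and Nr1d2, the receptor Rev-erb beta, by 0.84 ± 0.09, also without overlap. Cry2 and Tef rose by 0.95 and 0.76. On the other side of the loop Bmal1 had 21.0 to 86.7 (median 58.5) at day 35 and 113 to 208 (median 147) at day 7, a fall of 1.24 ± 0.21 (adjusted p = 0.00296). The day 35 median of Bmal1 is near the array's background. Its partner Npas2 fell by 0.88, the activator Rora by 0.77 and Nfil3, a D-box repressor, by 1.05. The counts were 7 higher and 3 lower without nandrolone day 35 replicate 3, 9 and 3 without nandrolone day 35 replicate 2, and 7 and 1 on the deposited scale. As the hour of tissue collection is not given, hour and time since nerve section cannot be told apart for these genes. The part of the hour was not tested.

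Clock proteins bind promoters through an E-box, searched as CACGTG, and a D-box, searched as TTATGTAA or TTACGTAA, each on both strands. Windows from 250 bases before to 50 after the RefSeq start (GRCr8) were matched for 8694 of the tested genes, and for all 11 called clock genes, of which 2 held an E-box and 1 a D-box. Among all 33469 windows 6.42% held an E-box and 1.01% a D-box. In the matched windows an E-box stood in 9.55% of genes higher at day 35, 12% of those lower and 9.77% of all tested genes. For the D-box these shares were 1.06%, 0% and 0.598%. The 3 clock windows with a match are shown because they hold one. They are Per2 at chr9:99496944-99497243 (minus strand), Bhlhe41 at chr4:180569306-180569605 (minus strand) and Tef at chr7:115206577-115206876 (plus strand), with the D-box or E-box in capitals.
Per2: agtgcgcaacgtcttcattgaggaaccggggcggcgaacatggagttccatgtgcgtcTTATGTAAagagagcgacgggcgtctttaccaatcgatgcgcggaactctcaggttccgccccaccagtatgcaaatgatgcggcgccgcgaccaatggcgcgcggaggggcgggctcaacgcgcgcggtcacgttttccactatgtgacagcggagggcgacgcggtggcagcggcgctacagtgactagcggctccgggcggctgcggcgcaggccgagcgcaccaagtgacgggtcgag
Bhlhe41: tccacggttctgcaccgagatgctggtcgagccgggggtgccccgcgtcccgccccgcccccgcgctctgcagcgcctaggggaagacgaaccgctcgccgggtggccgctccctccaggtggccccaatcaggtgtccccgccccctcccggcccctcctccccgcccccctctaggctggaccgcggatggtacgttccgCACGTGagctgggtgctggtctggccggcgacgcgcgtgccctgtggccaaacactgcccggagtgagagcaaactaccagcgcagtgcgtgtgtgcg
Tef: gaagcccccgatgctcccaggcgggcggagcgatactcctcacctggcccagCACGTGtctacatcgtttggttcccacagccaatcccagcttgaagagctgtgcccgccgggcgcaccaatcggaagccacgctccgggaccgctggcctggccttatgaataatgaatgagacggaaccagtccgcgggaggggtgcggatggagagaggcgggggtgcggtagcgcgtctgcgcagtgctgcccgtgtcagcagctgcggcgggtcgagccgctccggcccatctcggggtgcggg
A match is a description of these letters only. The windows of Per3, Dbp, Cry2, Nr1d2 and the 4 genes that fell held neither string.

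Calcineurin drives the slow fibre programme when calcium stays high, and Rcan1 and Rcan2 restrain it. These relatives moved in opposite directions: Rcan2 had 985 to 2890 (median 1792) at day 35 and 416 to 645 (median 536) at day 7, a rise of 1.66 ± 0.19 (adjusted p = 0.000299), beside the fall of Rcan1. Of 16 tested calcineurin and NFAT genes 3 rose and 3 fell, 18.75% each, against 5.62% and 7.01% of all tested genes. Nfatc2, a transcription factor that calcineurin activates, rose by 0.44 and Ppp3cb, a catalytic subunit, by 0.40. Dyrk1a, a kinase that opposes NFAT, had 167 to 259 (median 213) at day 35 and 357 to 430 (median 410) at day 7, a fall of 0.89 ± 0.13. Myoz2, a calcineurin-binding Z-disc protein, fell by 1.5 ± 0.41 but kept its call in only 5 of the 12 fits that left out 1 array (adjusted p up to 0.0701, without vehicle day 35 replicate 1).

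The promoter windows of Rcan1, chr11:45118187-45118486 (minus strand), and Rcan2, chr9:24672140-24672439 (minus strand), are shown since this pair diverged. Capitals mark a cAMP response element, searched as TGACGTCA, and an AP-1 site, searched as TGANTCA, on both strands; neither string can contain the other. Among all windows 1.83% held TGACGTCA and 7.33% held TGANTCA.
Rcan1: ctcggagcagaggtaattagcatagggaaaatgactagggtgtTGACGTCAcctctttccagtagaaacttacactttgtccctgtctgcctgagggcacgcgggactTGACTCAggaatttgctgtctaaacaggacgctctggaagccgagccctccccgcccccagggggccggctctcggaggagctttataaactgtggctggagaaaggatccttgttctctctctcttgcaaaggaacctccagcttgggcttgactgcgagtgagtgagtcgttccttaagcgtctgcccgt
Rcan2: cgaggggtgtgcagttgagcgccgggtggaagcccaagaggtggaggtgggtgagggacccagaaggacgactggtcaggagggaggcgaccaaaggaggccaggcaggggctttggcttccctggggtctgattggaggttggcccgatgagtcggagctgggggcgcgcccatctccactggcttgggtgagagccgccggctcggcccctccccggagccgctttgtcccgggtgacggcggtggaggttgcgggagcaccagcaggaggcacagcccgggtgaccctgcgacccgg
Rcan1 has further start sites that this window does not cover.

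Calcium handling and calmodulin genes had a median of 0.12. Of 24 tested, 5 rose and 1 fell, 20.8% and 4.17%, against 5.62% and 7.01% of all tested genes. Beside Calml3 and Pcp4 these were phospholamban (Pln), the brake of the slow calcium pump, with 117 to 383 (median 155) at day 35 and 74.4 to 98.0 (median 82.9) at day 7, a rise of 0.94 ± 0.22. Junctophilin 2 (Jph2), which ties the calcium store to the surface membrane, rose by 0.76 ± 0.16, and the kinase gene Camk2g by 0.70 ± 0.16. Casq2, the calcium buffer of slow fibre stores, was at 299 to 624 on 5 day 35 arrays and 3352 in nandrolone day 35 replicate 2, against 1428 to 2536 (median 2382) at day 7. It fell by 1.84 ± 0.47 (adjusted p = 0.0216) and did not pass without vehicle day 35 replicate 1, vehicle day 7 replicate 1 or vehicle day 7 replicate 3 (adjusted p up to 0.0551). The list gave 8 higher and 2 lower without nandrolone day 35 replicate 3.

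Fibre type and mechanical genes were taken in separate lists. Slow fibre genes had a median of -0.57. Of 15 tested, 4 fell and 1 rose, 26.7% and 6.67%, against 7.01% and 5.62% of all tested genes. Those that fell were Ankrd2, Casq2, Myoz2 and Csrp3, the muscle LIM protein of the Z-disc, and the riser was Pln. For each of the 4 that fell, nandrolone day 35 replicate 2 lay within or above the day 7 range. Myoz2 had 1010 to 3759 on 5 day 35 arrays and 10191 in nandrolone day 35 replicate 2, against 5327 to 8241 at day 7. Csrp3 had 1659 to 6413 on 5 day 35 arrays and 14348 in nandrolone day 35 replicate 2, against 10685 to 14993 (median 13791) at day 7, a fall of 1.63 ± 0.38 (adjusted p = 0.0151). Ankrd1, another stretch-responsive ankyrin repeat gene, had 789 to 5676 (median 2546) at day 35 and 8149 to 9521 (median 8740) at day 7 with no overlap, a fall of 1.82 ± 0.38. Among 25 dystrophin complex, Z-disc and integrin genes 3 rose and 5 fell, 12% and 20%, against 5.62% and 7.01% of all tested genes. Those that fell were Ankrd1, Ankrd2, Csrp3, Ankrd23 by 0.58 and filamin C (Flnc) by 0.60. Without nandrolone day 35 replicate 3 the slow fibre median was -0.32 with 5 lower, and without nandrolone day 35 replicate 2 it was -0.78 with 4 lower.

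Developmental muscle genes had a median of -0.57, and 3 of 13 tested fell, 23.1% against 7.01% of all tested genes. Igf2, a fetal growth factor, had 1329 to 2817 (median 1796) at day 35 and 2565 to 6056 (median 3560) at day 7, with ranges that overlap, and fell by 1.02 ± 0.21 (adjusted p = 0.00726). The embryonic myosin heavy chain gene Myh3 had 492 to 2648 on 5 day 35 arrays and 8530 in nandrolone day 35 replicate 2, against 4503 to 6332 (median 6041) at day 7. Its fall of 1.76 ± 0.51 and that of neonatal Myh8 by 1.84 ± 0.54 each kept the call in only 3 of the 12 fits that left out 1 array, with adjusted p up to 0.0792 without vehicle day 35 replicate 1 and 0.0911 without vehicle day 7 replicate 3. Of the adult myosins Myh1, the fast IIx chain, had 2814 to 4398 (median 3618) at day 35 and 4785 to 7412 (median 6555) at day 7, a fall of 0.80 ± 0.14 with no overlap (adjusted p = 0.00327). It was the only one of 17 fast fibre genes to pass, 5.88% against the 7.01% of all tested genes that fell. Myh1 was also called lower by 3 of its 4 further probe sets. The fast IIb chain gene Myh4 was at -0.07 ± 0.11, the IIa chain gene Myh2 at -0.16 ± 0.07 and the slow chain gene Myh7 at -0.72 ± 0.35, and none of these passed (adjusted p = 0.71, 0.18 and 0.196). A further Myh7 probe set stood at -1.23 and did not pass in limma (adjusted p = 0.0673). Myosin, tubulin and glutathione transferase genes have close relatives, and cross-hybridisation of their probes was not tested.

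The synapse between nerve and fibre holds the acetylcholine receptor, whose fetal form carries the gamma subunit and whose adult form the epsilon subunit. Of 20 tested receptor and junction genes 4 rose and 1 fell, 20% and 5%, against 5.62% and 7.01% of all tested genes. The list's median was 0.01. Chrnd, the delta subunit, had 279 to 2096 (median 1367) at day 35 and 3377 to 3924 (median 3442) at day 7, a fall of 1.80 ± 0.39 with no overlap (adjusted p = 0.00991). Without nandrolone day 35 replicate 3, which held the lowest value, the fall was 1.43 (adjusted p = 0.00218). Chrng, the gamma subunit, had 12 to 472 (median 180) at day 35 and 307 to 634 (median 408) at day 7 and did not pass (-1.64 ± 0.67, adjusted p = 0.121). The epsilon gene Chrne had 70.5 to 518 (median 362) at day 35 and 127 to 207 (median 161) at day 7, and did not pass (0.68 ± 0.35, adjusted p = 0.214). It passed without nandrolone day 35 replicate 3, which held the lowest value (1.02, adjusted p = 0.00974), on vehicle arrays alone and with array quality weights. The alpha subunit gene Chrna1 (-0.35 ± 0.27) and the receptor-clustering kinase gene Musk (-0.58 ± 0.24) did not pass. Erbb2, a neuregulin receptor, had 211 to 574 (median 273) at day 35 and 77.6 to 122 (median 93.6) at day 7, and rose by 1.55 ± 0.22 (adjusted p = 0.00105). Synaptic laminin (Lamb2) had 1375 to 2072 (median 1532) at day 35 and 593 to 948 (median 705) at day 7, a rise of 1.15 ± 0.14. The Musk activator gene Dok7 rose by 0.85, and Prkar1a, a regulatory subunit of protein kinase A, by 0.47 ± 0.11, a call lost without vehicle day 7 replicate 2 (adjusted p = 0.053). The list gave 6 higher and 1 lower without nandrolone day 35 replicate 3.

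Chrnd, Chrng and the cap-binding translation repressor gene Eif4e2 lie next to each other on chromosome 9 in RefSeq GRCr8. Eif4e2 had 423 to 708 (median 508) at day 35 and 1225 to 1376 (median 1290) at day 7, and fell by 1.30 ± 0.12 (adjusted p = 9.96e-05). The next tested genes beyond it, Efhd1 and Gigyf2, were at -0.06 and 0.19 and did not pass.

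Genes of the denervation response beyond the receptor went several ways. Of 15 tested, 3 fell, 20% against 7.01% of all tested genes. They were Chrnd, Ankrd1 and Rrad, a small GTPase that inhibits calcium channels. Rrad had 110 to 465 (median 152) at day 35 and 353 to 1684 (median 486) at day 7, ranges that overlap, with a fall of 1.56 ± 0.38. Cdkn1a, the gene of the cell cycle inhibitor p21, was the member that rose, by 1.81 ± 0.50. Its signals were 857 to 11666 (median 6672) at day 35 and 837 to 3312 (median 1081) at day 7, with vehicle day 35 replicate 2 at the low end, and its call held in 5 of the 12 fits that left out 1 array (adjusted p up to 0.0762, without vehicle day 35 replicate 1). Myog, the myogenic factor that nerve loss induces, had 1493 to 4226 (median 3191) at day 35 and 2841 to 4076 (median 3753) at day 7 and did not pass (adjusted p = 0.254). Runx1 and Ncam1, classic genes of denervated fibres, were at -0.10 ± 0.22 and -0.11 ± 0.24 and did not pass. Of 15 myogenic factors 3 rose, 20% against 5.62% of all tested genes, and none fell. Myod1 had 2512 to 4666 (median 4043) at day 35 and 1760 to 2451 (median 2233) at day 7, a rise of 0.71 ± 0.15 with no overlap (adjusted p = 0.00928). Id1, an inhibitor of such factors, rose by 0.83 ± 0.18, and Mef2a by 0.52 ± 0.13, which did not pass without vehicle day 7 replicate 1 or 2 (adjusted p up to 0.0523). Of the 15, 1 passed under median centring and 5 without nandrolone day 35 replicate 3, all higher.

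Muscle protein breakdown runs through ubiquitin ligases, the proteasome and lysosomes. Fbxo32, the atrogin-1 ligase, had 42.8 to 165 (median 66.4) at day 35 and 109 to 269 (median 204) at day 7, a fall of 1.20 ± 0.26 (adjusted p = 0.0112). Trim63, the MuRF1 ligase, had 1602 to 3296 (median 2653) at day 35 and 2600 to 4415 (median 4052) at day 7, a fall of 0.67 ± 0.15 (adjusted p = 0.012). Both pairs of ranges overlap. Of 16 ubiquitin ligase and FoxO genes these 2 and Ube2g1 fell, Ube2g1 by 0.49 ± 0.14 with the call held in 6 of 12 fits that left out 1 array, and Cblb, a ligase of insulin receptor substrates, rose by 0.51 ± 0.11. That is 18.75% lower and 6.25% higher, against 7.01% and 5.62% of all tested genes. Of 30 proteasome genes 5 fell, 16.7% against 7.01% of all tested genes, and none rose. Of the 30, 27 were below 0, with a median of -0.17. Psmd8, a subunit of the regulatory lid, had 864 to 1434 (median 1076) at day 35 and 1539 to 2314 (median 1795) at day 7, a fall of 0.70 ± 0.14. The core subunit genes Psma4 and Psma5 fell by 0.49 ± 0.12 and 0.42 ± 0.12, and the lid and base genes Psmd11 and Psmd2 by 0.40 and 0.37. Psma5 kept its call in 5 of the 12 fits that left out 1 array (adjusted p up to 0.0768, without vehicle day 7 replicate 1) and Psmd2 in 8 (up to 0.0677, without vehicle day 7 replicate 2). On the deposited scale 1 proteasome gene passed, and without nandrolone day 35 replicate 3 the median was -0.07 with 5 lower. On vehicle arrays alone 1 proteasome gene was lower, with 11 of the 30 above 0 and a median of -0.08. In that fit 1 of the 16 ubiquitin ligase and FoxO genes rose and 1 fell, with a median of 0.23. Of 21 autophagy and lysosome genes 3 fell, 14.3% against 7.01% of all tested genes. Vmp1, which starts autophagosomes, fell by 1.23 ± 0.14, the lysosomal protease gene Ctsl by 0.93 ± 0.17 and Map1lc3a by 0.59 ± 0.15, the last of which did not pass without vehicle day 35 replicate 1 (adjusted p = 0.0515). Vmp1 had 526 to 909 (median 742) at day 35 and 1537 to 2299 (median 1714) at day 7. No gene of the list rose in the full fit, and on vehicle arrays alone 2 rose and 3 fell. Fbxo32, Ube2g1, Psma4, Psma5, Psmd2 and Map1lc3a lost their calls on vehicle arrays alone.

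Growth factor signals moved on several sides. Mstn, or myostatin, which limits muscle size, had 36.2 to 71.4 (median 51.1) at day 35 and 64.2 to 268 (median 129) at day 7, a fall of 1.19 ± 0.26 (adjusted p = 0.0106). The day 35 median of Mstn is near the array's background, and its call was lost on the deposited scale. Its antagonist follistatin (Fst) had 277 to 1072 (median 832) at day 35 and 190 to 513 (median 328) at day 7 and rose by 1.08 ± 0.27 (adjusted p = 0.0205). Without vehicle day 7 replicate 3 the Fst call was lost (adjusted p = 0.0547), and a further Fst probe set rose by 0.95. Of 17 myostatin and activin genes 3 rose and 2 fell, 17.65% and 11.76%, against 5.62% and 7.01% of all tested genes. The others were Ltbp1, which stores latent TGF-beta, up by 0.94 ± 0.16, the receptor gene Acvr2a, down by 0.60, and Gdf11. Gdf11, a myostatin relative, rose by 1.22 ± 0.33 and kept its call in 6 of 12 fits that left out 1 array. The counts were 5 higher and 1 lower without nandrolone day 35 replicate 3. Among 26 insulin-like growth factor and Akt genes the binding protein gene Igfbp6 rose by 0.89 ± 0.22 and Igf2, Eif4e2 and the cap-binding factor gene Eif4e (0.57 ± 0.13) fell. That is 3.85% higher and 11.5% lower, against 5.62% and 7.01% of all tested genes. A further Eif4e probe set stood at 0.30 and did not pass. Igf1 was at 0.14 ± 0.31 (adjusted p = 0.801), with 4351 in nandrolone day 35 replicate 3 and 914 to 1256 on the other day 35 arrays, against 971 to 2101 at day 7.

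Metabolic genes moved both ways. Of 23 glycolysis and glycogen genes 6 rose and 2 fell, 26.1% and 8.7%, against 5.62% and 7.01% of all tested genes. Slc2a4, the insulin-regulated glucose transporter, had 2115 to 3629 (median 3358) at day 35 and 1420 to 1970 (median 1756) at day 7, a rise of 0.82 ± 0.14 (adjusted p = 0.00287). The enzyme genes Eno3 and Tpi1 rose by 0.35 ± 0.06 and 0.35 ± 0.08, Pgam2 by 0.39, Hk1 by 0.49 and Pfkfb1 by 0.78. Hk2, the hexokinase of contracting muscle, fell by 1.13, and Phka1, a subunit of phosphorylase kinase, by 0.82 ± 0.13. The list's median was 0.14, and under median centring it was -0.04 with 3 higher and 2 lower. On the deposited scale 1 was higher and 2 were lower, and without nandrolone day 35 replicate 3, 7 were higher and 4 lower. Of 29 oxidative phosphorylation genes only Cox7a1, the heart and muscle form of a cytochrome oxidase subunit, passed. It had 533 to 1500 (median 1018) at day 35 and 197 to 656 (median 296) at day 7, a rise of 1.64 ± 0.25 (adjusted p = 0.00179), with vehicle day 7 replicate 1 the highest of day 7. In the full fit 3.45% of the 29 rose, against 5.62% of all tested genes. Of the 29, 5 were higher without nandrolone day 35 replicate 3. Of 17 mitochondrial biogenesis genes only the fusion gene Mfn2 rose (0.54 ± 0.13), 5.88% against 5.62% of all tested genes. Ppargc1a was at 0.66 ± 0.26 (adjusted p = 0.117). Ppargc1a passed without nandrolone day 35 replicate 3 (0.94, adjusted p = 0.00231), on the deposited scale, on vehicle arrays alone and with array quality weights. Lpl, which frees fatty acids from blood lipids, fell by 0.69 ± 0.14 and Ucp3 by 0.66 ± 0.18, the only calls among 22 fatty acid genes. That is 9.09% lower, against 7.01% of all tested genes. Ucp3 kept its call in 8 of the 12 fits that left out 1 array (adjusted p up to 0.0693, without nandrolone day 7 replicate 2) and lost it on the deposited scale and on vehicle arrays alone. Of the 22, 6 were lower without nandrolone day 35 replicate 2.

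Redox and glutathione genes gave 7 rises and 7 falls among 26, 26.9% each, against 5.62% and 7.01% of all tested genes. Glutathione transferases of the alpha and mu classes rose: Gsta1 had 3213 to 5710 (median 4102) at day 35 and 679 to 1662 (median 1247) at day 7, a rise of 1.81 ± 0.21 (adjusted p = 0.000325). Gstm2 rose by 1.33 ± 0.21 and Gsta4 by 1.07 ± 0.14, while the theta class genes Gstt1 and Gstt2 fell by 0.89 and 0.83. Sod3, the extracellular superoxide dismutase, rose by 0.84 ± 0.13, catalase (Cat) and Nqo1 by 0.81 each and Gpx3 by 0.67. The metallothionein genes fell, Mt2A by 1.55 ± 0.28 with 427 to 1321 (median 807) at day 35 and 1387 to 3005 (median 2434) at day 7, and Mt1 by 1.07. Srxn1, Gpx1 and Txn1 fell by 0.74, 0.69 and 0.50. On the deposited scale the list gave 7 higher and 3 lower.

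Genes known to respond to glucocorticoids had a median of 0.49. Among 21 tested, 7 rose and 3 fell, 33.3% and 14.3%, against 5.62% and 7.01% of all tested genes. Tsc22d3, or Gilz, had 2215 to 4343 (median 3622) at day 35 and 1372 to 2116 (median 1765) at day 7, a rise of 0.92 ± 0.16 (adjusted p = 0.00363). Klf9 rose by 0.81 ± 0.13, Cebpd by 0.88, Klf15 by 0.70, Sgk1 by 0.57, and Cdkn1a and Nfkbia are also on this list. The metallothionein genes and Glul, glutamine synthetase, were the members that fell. Leaving out nandrolone day 35 replicate 3 gave the same counts and a median of 0.29. The part of the hour of tissue collection in this list was not tested either. Among 12 genes of the androgen responsive and steroid list 3 rose, 25% against 5.62% of all tested genes. They were the mineralocorticoid receptor gene Nr3c2, by 0.98 ± 0.20, and Thra and Thrb, by 0.71 ± 0.16 and 0.62 ± 0.17. Thra and Thrb encode thyroid hormone receptors, which are not steroid receptors. Thrb kept its call in 4 of 12 fits that left out 1 array. A further Thra probe set stood at -0.30 and did not pass.

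In the NF-kappaB and Tweak list 3 of 14 rose and 1 fell, 21.4% and 7.14%, against 5.62% and 7.01% of all tested genes. Nfkbia, the inhibitor of NF-kappaB, had 448 to 1206 (median 1094) at day 35 and 222 to 316 (median 232) at day 7, a rise of 1.72 ± 0.22 (adjusted p = 0.000699). The inhibitor gene Tnfaip3 rose by 0.68 ± 0.18, with the call kept in 6 of 12 fits that left out 1 array. The ligand Tweak (Tnfsf12) rose by 0.62 ± 0.15. The Tweak receptor gene Tnfrsf12a had 92.7 to 697 (median 201) at day 35 and 562 to 876 (median 715) at day 7, a fall of 1.62 ± 0.39 (adjusted p = 0.0163), with nandrolone day 35 replicate 2 the highest of day 35. Ligand and receptor thus stood on opposite sides, though both calls were lost on the deposited scale.

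The list of tubulins and microtubule-associated genes held the largest share of falls among the programme lists: 5 of 13 fell (38.5%), none rose and the median was -0.43. Of all tested genes 7.01% fell. Tuba4a had 1483 to 4139 (median 1585) at day 35 and 7275 to 8769 (median 7562) at day 7, a fall of 1.91 ± 0.24 (adjusted p = 0.000632). Tuba8 fell by 1.54 ± 0.28, Tubb6 by 1.25 ± 0.23, Tubb4b by 0.77 ± 0.18 and Mapt, whose product tau binds microtubules, by 1.02. The days did not overlap for the 4 tubulin genes. Counts of falls were 7 without nandrolone day 35 replicate 3, 6 under median centring and 4 on the deposited scale.

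Smaller groups followed. In the polyamine list 1 of 11 tested rose and 2 fell, 9.09% and 18.2%, against 5.62% and 7.01% of all tested genes. Spermidine synthase (Srm) had 137 to 241 (median 208) at day 35 and 410 to 591 (median 440) at day 7, a fall of 1.15 ± 0.15 (adjusted p = 0.000698). Sat1, which acetylates polyamines, fell by 0.93 ± 0.21 and Oaz2, an inhibitor of their synthesis, rose by 0.60 ± 0.10. Among 20 heat shock and chaperone genes 3 fell, 15% against 7.01% of all tested genes. They were Hspb7, by 1.75 ± 0.44, alpha-B crystallin (Cryab) by 0.43 ± 0.11 and Hspe1 by 0.40 ± 0.08. Hspb7 stood at 8546 in nandrolone day 35 replicate 2 and at 652 to 3196 on the other day 35 arrays, against 6641 to 8149 at day 7, and did not pass without vehicle day 35 replicate 1 (adjusted p = 0.052). Of 27 cell cycle genes 2 rose and 2 fell, 7.41% each, near the shares of all tested genes. The inhibitor genes Cdkn1c and Cdkn1a rose, and the mitotic genes Ccnb2 and Ube2c fell by 0.96 ± 0.28 and 0.73 ± 0.21. Ccnb2 and Ube2c kept their calls in 3 and 4 of the 12 fits that left out 1 array. Rpl3 fell by 0.63 ± 0.16, the only call among 19 ribosomal protein genes, and did not pass without vehicle day 7 replicate 3 (adjusted p = 0.0547). Heyl, a Notch target, and Tcf7l2, of the Wnt pathway, rose by 0.87 ± 0.25 and 0.51 ± 0.15, as the only calls of their lists. Their lists held 14 and 18 tested genes, so that 7.14% and 5.56% rose, near the 5.62% of all tested genes. Heyl and Tcf7l2 each kept the call in 4 of the 12 fits that left out 1 array. Of 20 immediate early genes none passed, and the list's median change was 0.40 in nandrolone rats and -0.72 in vehicle rats. On vehicle arrays alone 9 of the 20 fell, 2 fell without nandrolone day 35 replicate 2 and 1 without nandrolone day 35 replicate 3. Fos had 167 to 3606 (median 539) at day 35 and 160 to 4613 (median 3192) at day 7, with a change of -1.63 ± 0.79 (adjusted p = 0.192). It passed without nandrolone day 7 replicate 1 (-2.36, adjusted p = 0.0202), without nandrolone day 35 replicate 2 (-2.23, adjusted p = 0.0461), on vehicle arrays alone and with array quality weights.

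**Figure D3:**
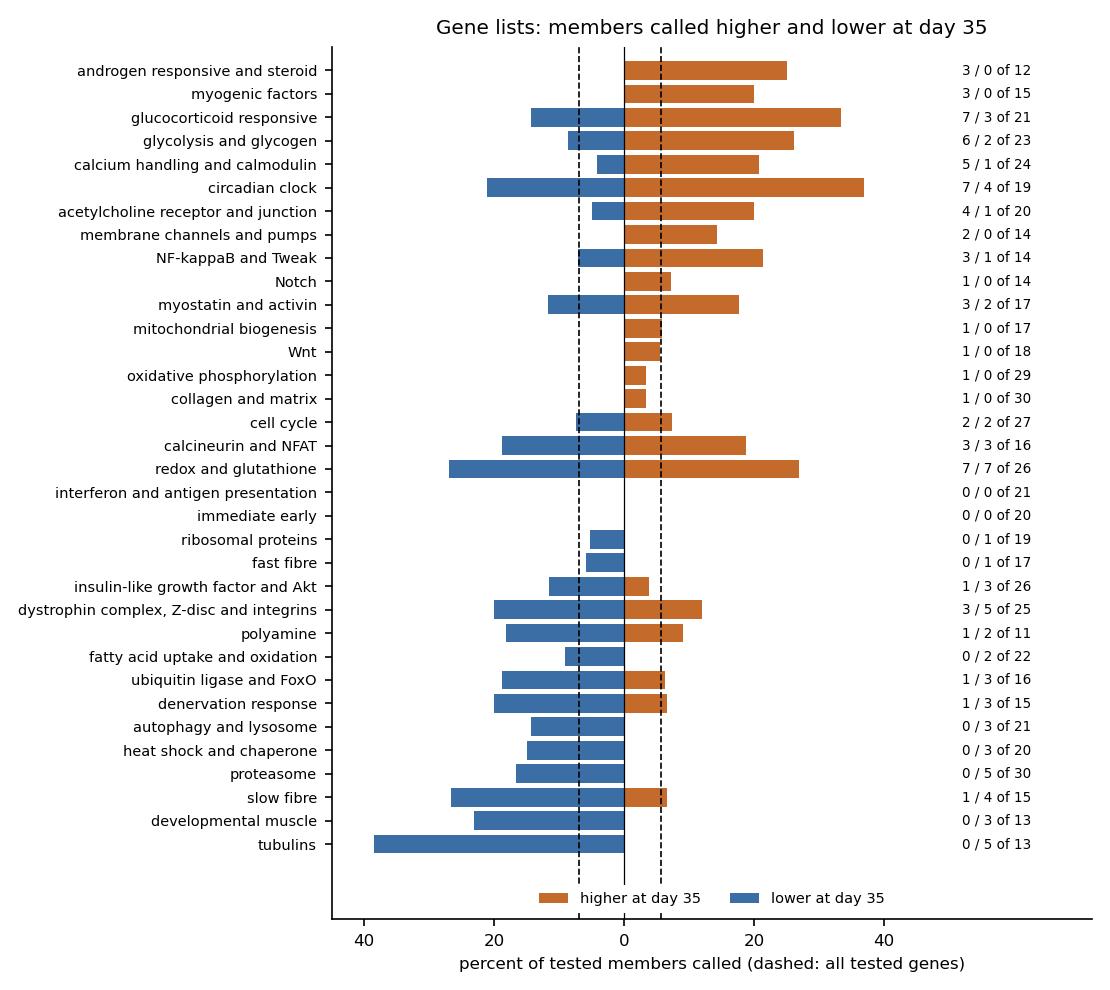
Percent of tested members called higher (orange, right) or lower (blue, left) at day 35 in 34 gene lists, with the counts higher / lower of those tested at the right. Dashed lines mark the 5.62% and 7.01% of all tested genes; the list of tubulins and microtubule-associated genes reaches farthest left with 5 of 13 and the circadian clock farthest right with 7 of 19.

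Markers of other cell types give what moved around the fibres. Of 20 macrophage markers 19 were below 0, with a median of -0.60, and 3 fell, 15% against 7.01% of all tested genes. They were Gpnmb, Mrc1 by 0.91 ± 0.28 and Tyrobp by 0.79 ± 0.23. Mrc1 kept its call in 2 of the 12 fits that left out 1 array and Tyrobp in 4. The summed macrophage signal was 3804 to 15008 (median 4999) at day 35 and 7682 to 19958 (median 8964) at day 7, ranges that overlap. Without nandrolone day 35 replicate 3, 9 of the 20 fell and all were below 0. Leaving out nandrolone day 35 replicate 2 left 1 fall. In vehicle rats alone 12 fell, where 1152 of 18625 probe sets were lower. Itgam, a defining gene, had a median signal under 64. The part of macrophage content in the falls of Gpnmb and other genes was not tested.

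Schwann cell and nerve markers, Cnp among them, had a summed signal of 3928.5 to 21476 (median 5314) at day 35 and 2327 to 3728 (median 3066) at day 7, and these ranges did not overlap. Without Cnp, a sum taken after the data were seen, it was 1830.0 to 16710 (median 2574) at day 35 and 1683 to 2759 (median 2336) at day 7, and the ranges overlapped. Cnp, an enzyme of myelinating cells, had 1996 to 4766 (median 2828) at day 35 and 643 to 968 (median 729) at day 7, a rise of 1.84 ± 0.20 (adjusted p = 0.000268), and 1.70 without nandrolone day 35 replicate 3. Nefm, a neurofilament gene, had 58.0 to 756 (median 145) at day 35 and 13.8 to 79.7 (median 33.7) at day 7 and rose by 2.06 ± 0.49 (adjusted p = 0.0154). These 2 passed of 11 tested, 18.2% against 5.62% of all tested genes, and the list's median was 0.39. In vehicle rats alone that median was -0.01 with 2 higher and 2 lower. The defining genes Sox10, Erbb3 and Ngfr had median signals under 64.

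Adipocyte markers had a median of 0.60 with none of 11 called, and a summed signal of 3247 to 19568 (median 4598) at day 35 against 2618 to 4049 (median 2951) at day 7. Adipoq and Plin1 had median signals under 64, and without nandrolone day 35 replicate 3 the median was 0.26 with 1 higher. Among 13 fibroblast markers 2 rose, 15.4% against 5.62% of all tested genes. Gsn rose by 0.91 ± 0.12, and Dpt rose by 0.78 ± 0.21 with the call kept in 6 of 12 fits that left out 1 array. The summed signal of the 13 markers was 30677 to 73148 (median 39951) at day 35 and 30695 to 58068 (median 35709) at day 7. On vehicle arrays alone 2 of the 13 rose and 4 fell. Of 30 collagen and matrix genes only Col15a1 rose, by 0.62 ± 0.18, which is 3.33% against 5.62% of all tested genes. None fell, with Col1a1 at -0.02 ± 0.27 and Col3a1 at -0.19 ± 0.20. Col15a1 kept its call in 4 of 12 fits that left out 1 array. Without nandrolone day 35 replicate 3, 7 of the 30 fell and the median was -0.40, against -0.14 with it. In vehicle rats alone 14 fell and 2 rose. Scx and Col11a1, tendon and cartilage genes, fell by 1.00 ± 0.28 and 0.93 ± 0.27, each with the call kept in 4 of 12 fits that left out 1 array. Lmod1, of smooth muscle, rose by 0.85 ± 0.21, Cd5, of lymphocytes, fell by 1.01 ± 0.23, and Alas2, of red cell precursors, fell by 0.89 ± 0.22. Lmod1 did not pass without vehicle day 35 replicate 1 or vehicle day 7 replicate 2 (adjusted p up to 0.0531), nor Alas2 without vehicle day 7 replicate 1, 2 or 3 (up to 0.0537), and neither passed on the deposited scale. No endothelial, mast cell or satellite cell marker passed among 12, 3 and 5 tested.

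**Figure D4:**
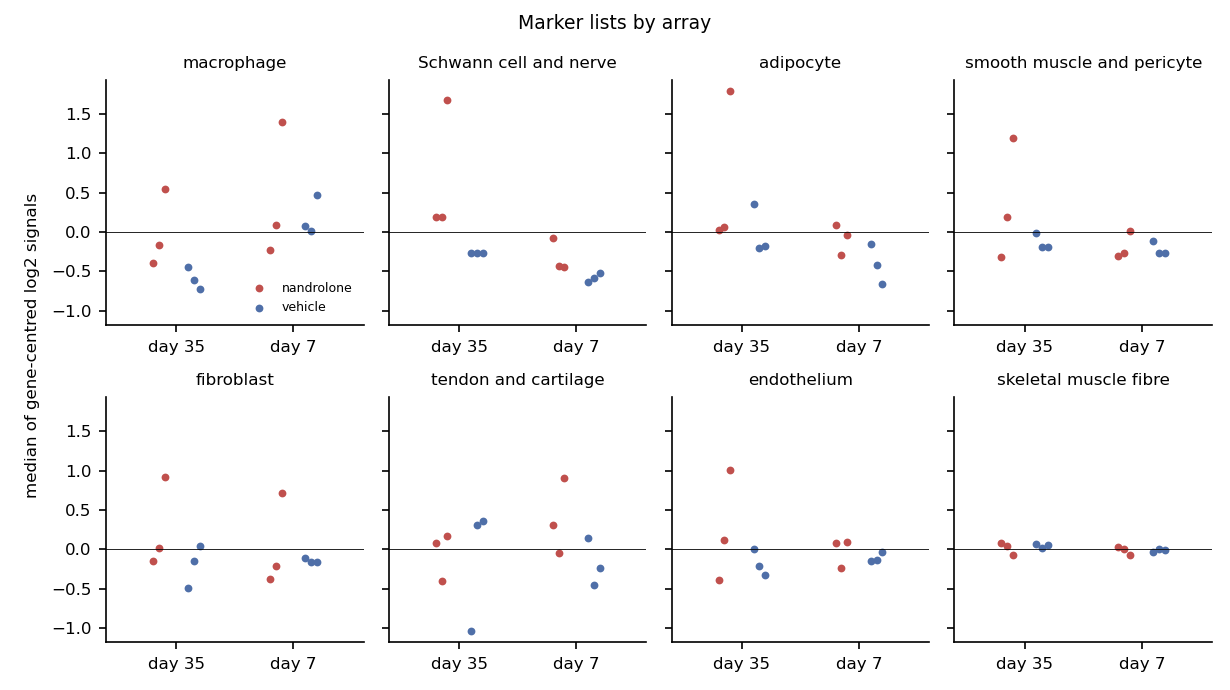
Median of gene-centred log2 signals (vertical axis) over 8 marker lists on each of the 12 arrays, day 35 left of day 7, nandrolone in red and vehicle in blue. The highest day 35 point of the macrophage, Schwann cell, adipocyte, smooth muscle, fibroblast and endothelium panels is nandrolone day 35 replicate 3, and the skeletal muscle fibre points lie near 0.

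The time change had the same sign within nandrolone and within vehicle rats for all 2410 called probe sets, which follows in part from the averaging that made the calls. Probe sets called higher had a median change of 0.58 in nandrolone rats and 0.82 in vehicle rats, and those called lower -0.64 and -0.71. A test of the difference between these changes, the interaction of time and treatment, called none of 18625 probe sets in limma (smallest adjusted p = 0.928), with 745 at an unadjusted p of 0.05. That test also called none without nandrolone day 35 replicate 1, where 1631 had an unadjusted p under 0.05 and the smallest adjusted p was 0.0657, nor with the replicate number as a block (1356 and 0.103). Per3 rose by 0.97 in nandrolone and 2.58 in vehicle rats, and Trim63 fell by 0.95 and 0.39, differences that did not pass. Fitted on the 6 nandrolone arrays alone, no probe set passed (1713 at an unadjusted p of 0.05, smallest adjusted p = 0.144), whereas 2544 passed on the 6 vehicle arrays alone. Fos was at 0.17 in nandrolone and -3.44 in vehicle rats, and Chrne at -0.06 and 1.41, with interactions that did not pass either.

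**Figure D5:**
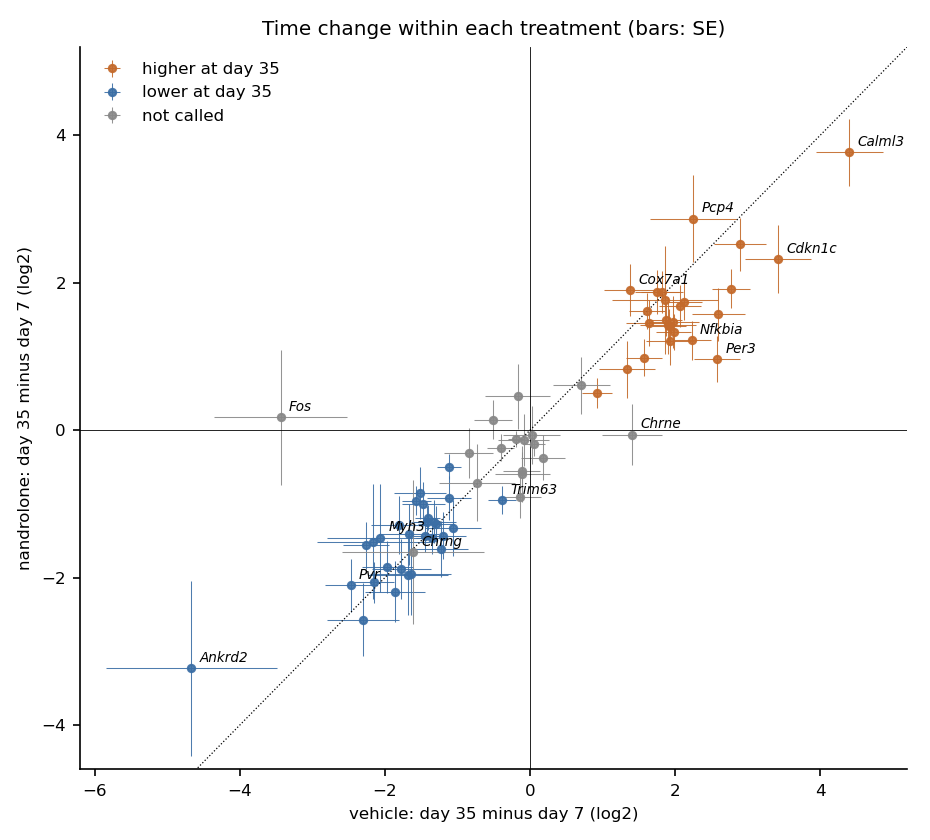
Change between day 35 and day 7 within nandrolone rats (vertical axis, log2) against that within vehicle rats (horizontal axis, log2) for the genes named by size of change or from the fixed set, with SE bars and a dotted line of equal change. Called genes (orange higher, blue lower) lie at the upper right and lower left, while Fos and Chrne, not called, lie near 0 in nandrolone rats.

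Agreement between probe sets of a gene was checked for 396 called genes with a further tested probe set. Of 564 such probe sets 439 changed in the same direction, 170 were called in that direction and 9 were called in the opposite one. Among genes named here the further probe sets of Ankrd1, Casq2, Cnp, Rcan2 and Phka1 were each called in the same direction, and a further Cdkn1a probe set stood at 0.93 without passing. Other further probe sets on the same side did not pass either. They include those of Tsc22d4 (1.135), Col11a1 (-0.93), Dpt (0.50), Ctsl (-0.47) and Slc2a4 (0.46). The same holds for Col15a1 (0.44), Klf9 (0.40), Oaz2 (0.28) and Thrb (0.17 and 0.32). Further probe sets on the other side of 0, none of which passed, belonged to Dag1, Eif4e and Thra, as given above, and to Rpl3 (0.20), Heyl (-0.18), Prkar1a (-0.17), Tcf7l2 (-0.05), Mef2a (-0.02) and Nr1d2 (-0.01). Actc1, the cardiac actin gene, was in the fixed set and did not pass the filter on low signal.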

How the data were processed

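Affymetrix rat arrays measured RNA of denervated gastrocnemius, 12 arrays in 4 groups of 3. The authors deposited signal intensity values per probe set, made with MAS5 per the submitters' processing notes. A second deposited table has 12 columns not matched to samples and was not used here.

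From the deposited intensities, 57 control probe sets were left out, 16 was added, log2 taken, arrays quantile normalised and the dimmest 40% of probe sets dropped. Signals are printed after normalisation with the 16 removed. R 4.3.3 and limma 3.58.1 (intensity trend, 9 residual degrees of freedom, two-sided, Benjamini-Hochberg) fitted time plus treatment. The script was tested on simulated data. A fit with 4 group means gave values within each treatment and the interaction. Each gene was represented by its brightest tested probe set, named from the platform annotation; of 31042 probe sets 20826 had 1 gene, 436 several and 9780 none. Array number limits the precision.

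Named genes were up to 20 rises and 20 falls without overlap and with a signal of at least 64, up to 4 called genes per list, a fixed set and 8 genes by interaction. Further called list members were named after their values were seen. Members and lists were chosen with earlier results of these data known.

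Replicate numbers are shared by the groups. The deviations of same-numbered arrays correlated at 0.162, 0.265 and 0.416 in nandrolone rats and -0.0201, 0.105 and -0.0212 in vehicle rats, so the numbers were not taken as pairs. Alternatives changed scaling, the added value, the filter, the model, the threshold and the arrays used.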

Additional observations from a re-analysis of the deposited data

Results flagged for a closer look

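In 302 groups of 6 arrays (a named gene on 1 day), 36 held an array whose distance to its nearest neighbour, as a share of the group's range, was above Dixon's 95% limit for 6 values. Chance gives about 1 in 20 groups. The values printed below are normalised signals, not on the log2 scale.

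On the array of nandrolone day 35 replicate 2, muscle genes stood high: Ankrd2 at 6740 (nearest other day 35 array 121), Casq2 at 3350 (nearest 624), Rcan1 at 1380 (nearest 553) and Rrad at 465 (nearest 169). Per2 was low there, at 298 (nearest 489).

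The array of nandrolone day 35 replicate 3, which also had the lowest correlation with its day, was high for Col15a1 at 1860, Dpt at 6330, Heyl at 293, Igf1 at 4350, Pln at 383 and Rpl3 at 9100. It was low for Psmd2 at 2430, Stap2 at 85.7 and Tnfaip3 at 231. Other day 35 arrays that stood apart were vehicle replicate 3 for Jph2 at 2140 and Tgif1 at 341, vehicle replicate 2 for H19 at 7360, on the low side, and nandrolone replicate 1 for Srm at 137, also low.

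At day 7, nandrolone replicate 3 was high for the matrix genes Col1a1 at 11600 (nearest 6810) and Col11a1 at 562 (nearest 224) and for Igf1 at 2100. It was low for Myog at 2840, Myoz2 at 5330, Spryd7 at 1430, Trim63 at 2600 and Ucp3 at 1050. Nandrolone day 7 replicate 1 was low for Fos at 160 (nearest 1640), Eif4e at 1590, Myod1 at 1760 and Tpi1 at 6300. Vehicle day 7 arrays stood apart for Cox7a1 at 656 (replicate 1), Eno3 at 10100 and Vmp1 at 2300 (replicate 2), and Hspe1 at 5020, Rrad at 1680 and, low, Gsn at 2970 (replicate 3).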

How the results depend on the processing

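Called list members named after their values were seen, such as Cry2, Hk2 and Mapt, were not checked gene by gene. The naming rules gave 126 called genes. Their direction held under each alternative run, and 95 kept their call in all 12 fits that left out 1 array. None kept it under every alternative: 126 lost it on nandrolone arrays alone, 58 at a 2-fold minimum, 53 at an adjusted p of 0.01, 31 on the deposited scale, 20 on vehicle arrays alone and 10 under median centring. The count of 2410 calls moved to 1092 (772 higher, 320 lower) on the deposited scale, 4317 (2251 and 2066) with array quality weights, 736 (380 and 356) at an adjusted p of 0.01, 450 (237 and 213) with at least a 2-fold change and 0 (0 and 0) on nandrolone arrays alone. Leaving out 1 array gave 1433 to 2995 calls, 702 to 1647 higher and 715 to 1363 lower; the lower calls numbered 773 without nandrolone day 7 replicate 2. With treatment and replicate number as a replicate block there were 2751 calls, and 3 of the 126 genes lost theirs, Ccnb2, Myh8 and Ube2c. The interaction called 0 probe sets in limma on the deposited scale, under median centring, with either other added value, with the block and without each array (310 to 1631 at an unadjusted p of 0.05, 745 in the reported fit). It was not run under the other alternatives. Genes that had not passed changed sign as follows: Runx1 to 0.111 with array weights, 0.1767 on vehicle arrays alone, 0.06945 without nandrolone day 35 replicate 3 and 0.01733 without nandrolone day 7 replicate 1; Igf1 to -0.1188 with weights, -0.1711 on vehicle arrays alone and -0.1846 without nandrolone day 35 replicate 3; Ncam1 to 0.07368 with weights and 0.1309 without that array. Col1a1 turned to 0.04301 with the actin ratio as covariate, 0.02307 on vehicle arrays alone and 0.03757, 0.1195, 0.17 and 0.1146 without nandrolone day 35 replicate 1, nandrolone day 35 replicate 2, vehicle day 35 replicate 1 and nandrolone day 7 replicate 3. On nandrolone arrays alone Col3a1 was at 0.1405, Fos at 0.1721 and Chrne at -0.05972. Myh4 was at 0.05046 on vehicle arrays alone and 0.01346 without nandrolone day 35 replicate 2. Over the 12 fits that left out 1 array, the lowest and highest values were -0.2012 and 0.06945 for Runx1, -0.1846 and 0.2685 for Igf1, -0.2484 and 0.1309 for Ncam1, -0.2037 and 0.17 for Col1a1 and -0.1344 and 0.01346 for Myh4. The cause of these changes was not tested.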

Other observations

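The genes with the smallest unadjusted p for the interaction of time and treatment did not pass in limma (smallest adjusted p = 0.928). Ptgs2, the inducible cyclooxygenase gene, was at 1.11 between the days in nandrolone rats and -1.41 in vehicle rats. Has2, a hyaluronan synthase gene, was at -1.11 in vehicle rats, and Sema6a, a semaphorin gene, at 0.50 in nandrolone and -0.78 in vehicle rats. Mybph, a myosin-binding protein gene, was at -0.57 in nandrolone and 0.55 in vehicle rats, and Hilpda, a lipid droplet gene, at -0.35 and 0.79. Zfp212, Zbtb11os1 and Proser3 were at -0.18, -0.66 and -0.36 in nandrolone rats and at 1.00, 1.19 and 0.89 in vehicle rats.

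For 9 genes a further probe set was called in the direction opposite to the brightest one. Among those higher by their brightest probe set, Syncrip had a further one at -0.91, Bclaf1 at -0.65, Sar1a at -0.55, Cpsf2 at -0.54, Dynll2 at -0.47 and Pcif1 at -0.44. Among those lower, Chpt1 had one at 0.78, Amz2 at 0.77 and St13 at 0.41.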
